A study of Mus musculus with 25 samples.

Results

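Lysosomal genes are described here as 32 genes, chosen by symbol, that encode enzymes and membrane proteins of the lysosome together with the transcription factor Tfeb. They were followed over 8 days of follicle culture among 17914 genes on the array. All 32 were represented, by 53 probes: 30 under the symbol in the file and 2 under an older one, Lipa as Lip1 and Tfeb as Tcfeb. For each gene the probe with the highest mean was used, and 29 members passed the filter of a detection p under 0.05 on at least 3 follicle arrays. Ctse was detected on 0 of 20 follicle arrays and Gla and Tfeb on 1 each at most, so these 3 have no test.

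The RNA came from ovarian follicles of CD-1 mice aged 16 days, with no genetic change or drug named in the labels. Secondary follicles with several granulosa layers, 150 to 180 µm across, were freed mechanically, enclosed 1 by 1 in alginate and grown in medium with FSH, albumin, fetuin, insulin, transferrin and selenium. Day 0 follicles (n = 5 arrays) are the start of the course, and 3 arrays each came from days 2, 4, 5, 6 and 8 of the culture. Pools held 20 to 40 follicles, from 3 independent experiments per the labels. The titles mark the day 0 arrays as a reference, and nothing says that they came from separate pools. P-values against day 0 count them as 5 samples, with 1 spread shared by all 20 follicle arrays. If they are repeats of 1 pool, their own spread is technical only and these p-values may be too small. Each pool mixes oocyte, granulosa and theca cells, and markers of blood, vessel, smooth muscle and surface epithelium were also detected at day 0. Fewer cells of a type and less RNA per cell therefore cannot be told apart in any change below.

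Lysosomes are acidic organelles in which hydrolases break down protein, glycan and lipid delivered by endocytosis, phagocytosis and autophagy. Cathepsins are their main proteases, glycosidases and lipid hydrolases take sugars and lipids apart, and heavily glycosylated membrane proteins such as LAMP1 and LAMP2 line the membrane. TFEB is a transcription factor known to switch on many lysosomal genes through E-box sequences near their start sites. In the ovary, cathepsin L is known for its rise in granulosa cells of growing follicles, and lysosomal breakdown is part of the removal of degenerating follicles.

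The sequences shown are the 120 bases before the start site of 4 members, chosen because they hold the E-box form through which TFEB is known to act. They are from RefSeq (GRCm38.p6), 5′ to 3′ on the gene's strand, and capitals mark TCACGTG on either strand (written CACGTGA where it lies on the other). Lamp1 is at chr8:13159041-13159160 on the plus strand, Mcoln1 at chr8:3500399-3500518 on the plus strand, Glb1 at chr9:114400958-114401077 on the plus strand and Ctsd at chr7:142387828-142387947 on the minus strand.
Lamp1: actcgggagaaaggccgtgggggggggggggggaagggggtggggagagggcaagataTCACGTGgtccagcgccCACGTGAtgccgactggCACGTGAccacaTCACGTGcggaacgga
Mcoln1: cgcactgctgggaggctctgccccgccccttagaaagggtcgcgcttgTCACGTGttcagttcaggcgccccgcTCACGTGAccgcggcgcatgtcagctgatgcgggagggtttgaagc
Glb1: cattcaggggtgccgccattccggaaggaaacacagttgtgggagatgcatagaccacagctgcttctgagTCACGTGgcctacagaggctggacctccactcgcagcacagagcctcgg
Ctsd: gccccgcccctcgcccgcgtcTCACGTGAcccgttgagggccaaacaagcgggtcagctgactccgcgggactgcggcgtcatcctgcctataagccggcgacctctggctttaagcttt
Lamp1, which encodes a major glycoprotein of the lysosomal membrane, holds 4 such boxes here, and Mcoln1, a lysosomal cation channel, holds 2. Windows from 250 bases before to 50 after the start were found for 28 of the 32 members; Asah1, Ctsb, Ctse and Ctsh are named only. TCACGTG on either strand was present in the windows of 7 of 28 members (25%), against 4.29% of all genes with a window. The 7 were Ctsa, Ctsd, Gla, Glb1, Lamp1, Lgmn and Mcoln1. The shorter core CACGTG, which TCACGTG contains, was present in 9 of 28 members (32.1%) against 8.09% of all genes. A match of letters is a description of these windows and shows no binding.

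On the follicle arrays the median signal ranged from 95.8 to 168 and 44.2% to 51.3% of probes were detected. Mean correlation with arrays of the same day ranged from 0.951 to 0.992, and the lowest belonged to repeat 1 of day 6, which stood apart. The median SD of the members within a day was between 0.12 and 0.23 on the log2 scale. No array repeated another within its beads' error. A level below is the log2 of a background-corrected, quantile-normalised intensity, and levels are not compared between probes of different genes. A gene is called risen or fallen when its Benjamini-Hochberg adjusted p, from limma over all 10688 genes tested, is under 0.05.

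Over the 6 days, 27 of the 29 tested members differed in the moderated F test (limma), against 50% of all genes tested. At day 8, 26 members had risen and 1 had fallen against day 0, where 20.6% of all genes rose and 22.8% fell. The median change of the 29 was 1.11 on the log2 scale and that of all genes 0.00. Among the 26 members detected on every array, 23 rose and 1 fell, where 23.5% of genes detected on every array rose and 22.6% fell. With day 0 averaged and counted as 1 sample, 19 members rose and 0 fell, and 8.67% of all genes rose; Ctsc, Ctso, Ctsz, Lamp1, Lamp2, Lgmn and Mcoln1 then lost their calls, at adjusted p from 0.0682 to 0.292. In the authors' own log2 values, which were less spread, the median change at day 8 was 0.61.

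**Figure D1:**
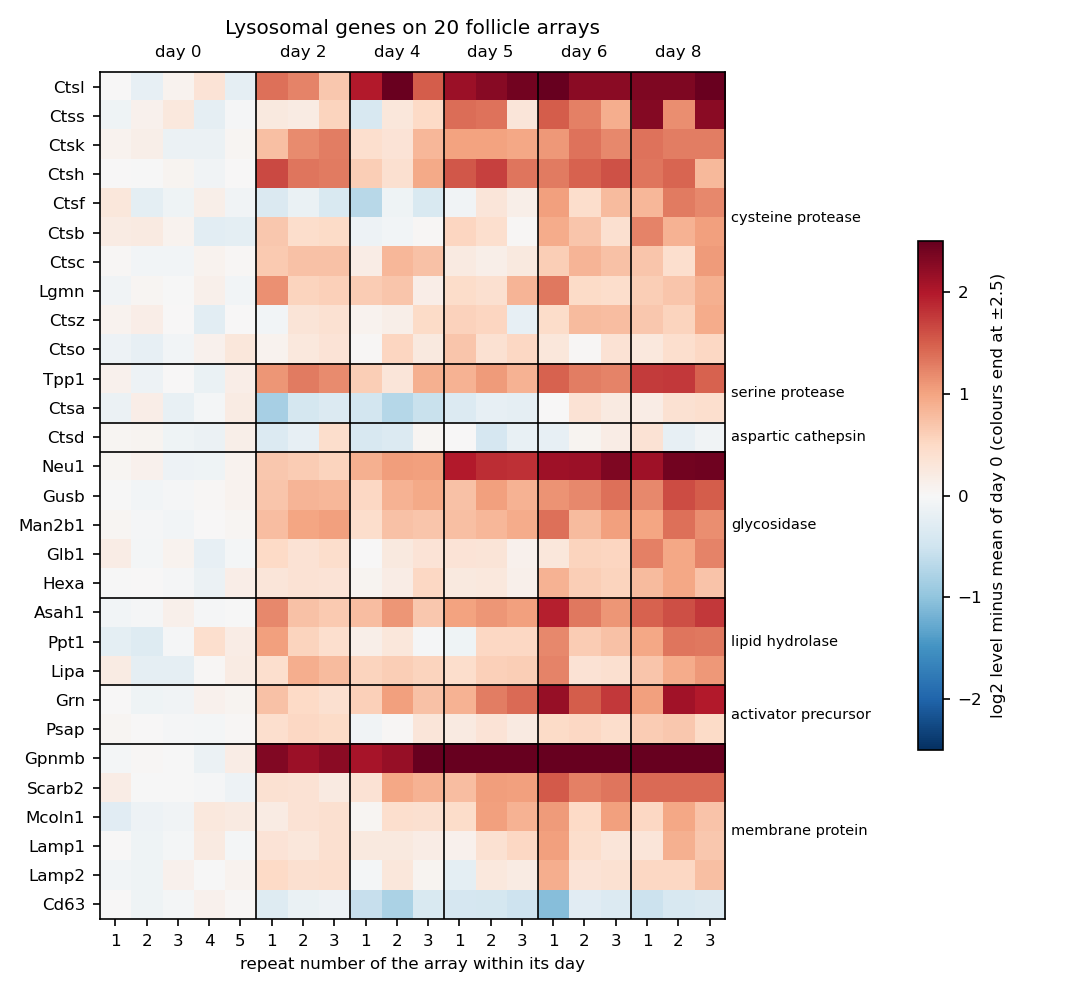
Each row is 1 of the 29 tested lysosomal genes, grouped by role, and each column is 1 of the 20 follicle arrays, grouped by day. Colour gives the log2 level minus the gene's mean at day 0. Most rows are red from day 2 on, while Ctsd stays near white, Cd63 is blue throughout the culture, and Ctsa is blue until day 5.

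Gpnmb had the largest change of any member. It encodes a membrane glycoprotein of lysosomes and melanosomes that is also made by macrophages and osteoclasts. Gpnmb read 6.85, 6.93, 6.89, 6.77 and 7.09 on the 5 arrays of day 0, 9.22, 9.04 and 9.17 at day 2 and 8.97, 9.08 and 10.38 at day 4. On the later arrays it was 10.55, 10.99 and 10.66 at day 5, 11.99, 11.42 and 11.13 at day 6 and 11.16, 10.96 and 11.69 at day 8. No cultured array overlapped day 0, and the level at day 8 was 4.36 ± 0.26 (SE) above day 0 on the log2 scale, or 20.6-fold (limma adjusted p = 1.09e-10). Apart from Tfeb, members were printed singly only if day 8 did not overlap day 0, which held for 46.7% of all genes. Between day 2 and day 0, 35.8% of all genes had no overlap. On this probe about equal parts of the rise lay before and after day 2, at 2.24 and 2.13. A dimmer probe of Gpnmb, detected on 9 arrays, rose by 1.63 from day 0 to day 8. Its split was unequal, at 0.45 to day 2 (limma adjusted p = 0.322) and 1.19 from day 2 to day 8 (0.0147).

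All 10 cysteine proteases had risen by day 8, 6 of them by day 2, where 20.6% and 12.1% of all genes had risen. Ctsc and Ctso among them lay near the detection limit. The group holds the papain-like cathepsins B, C, F, H, K, L, O, S and Z and legumain (Lgmn), which cuts after asparagine. Ctsl (cathepsin L, a broad endopeptidase) read 6.99, 6.79, 7.07, 7.33 and 6.77 on the 5 arrays of day 0, 8.36, 8.23 and 7.66 at day 2 and 8.98, 9.46 and 8.51 at day 4. Later readings were 9.12, 9.26 and 9.40 at day 5, 9.52, 9.25 and 9.24 at day 6 and 9.32, 9.32 and 9.47 at day 8. Every cultured array lay above all 5 of day 0, and the rise to day 8 was 2.38 ± 0.19 (adjusted p = 7.53e-09). From day 2 to day 4 it rose by 0.90 (adjusted p = 0.0118), a call lost without repeat 3 of day 2 or repeat 2 of day 4 (adjusted p = 0.0885 and 0.0912).

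Ctss (cathepsin S, best known from antigen-presenting cells) read 5.17, 5.37, 5.53, 5.04 and 5.24 on the 5 arrays of day 0, 5.51, 5.47 and 5.84 at day 2 and 4.87, 5.56 and 5.76 at day 4. It then stood at 6.66, 6.63 and 5.58 at day 5, 6.79, 6.52 and 6.17 at day 6 and 7.58, 6.44 and 7.52 at day 8. It was detected on 1 of 5 arrays at day 0 and on all 3 at day 8. Day 8 lay 1.91 ± 0.28 above day 0 (adjusted p = 1.28e-05), with 1 of its arrays about 1 log2 unit below the others. Its day 8 arrays did not overlap day 0, which was a condition for printing them singly and also held for 46.7% of all genes. The change was 0.33 to day 2 (adjusted p = 0.43) and 1.57 from day 2 to day 8 (0.000821), and the spans were not shown to differ.

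Ctsh, an aminopeptidase, and Ctsk, a collagen-degrading enzyme known from osteoclasts, rose early. Ctsh had a mean level of 11.31 ± 0.06 (SD, n = 5) before culture, 12.73 ± 0.20 (n = 3) after 2 days and 12.51 ± 0.34 after 8. Ctsk went from 8.75 ± 0.13 to 9.83 ± 0.28 and 10.05 ± 0.04 on the same days. Neither passed the test from day 2 to day 8, with changes of -0.22 and 0.22. Ctsf rose late: it read 7.54 ± 0.21 at day 0, 7.24 ± 0.12 at day 2 and 8.65 ± 0.24 at day 8, a rise of 1.41 after day 2. Ctsb, an abundant endo- and exopeptidase, rose by 0.53 to day 2 and by 1.05 to day 8. Lgmn rose by 0.76 to day 2 and stood 0.73 above day 0 at day 8, and Ctsz, a carboxypeptidase, was 0.72 higher at day 8.

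The dimmest proteases give less. Ctsc, which activates serine proteases of immune cells, was detected on 0 arrays of day 0, on 3 of 3 at day 2 and on 1 of 3 at day 8. Its level at day 2 was at least 1.01-fold higher than the detection limit of day 0. For day 8, with most arrays undetected, no such bound is given. The tested changes were 0.70 at day 2 and 0.73 at day 8 (adjusted p = 0.00136 and 0.000411), between levels near the detection limit. Ctso was detected on 0 arrays of day 0 and 1 of 3 of day 8, its arrays overlapped, and its call at day 8 (adjusted p = 0.0314) was lost without any 1 of repeats 1, 2 and 3 of day 0 or repeats 2 and 3 of day 8 (adjusted p up to 0.124) and in the authors' log2 values.

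Of the serine proteases, Tpp1, a tripeptidyl peptidase, rose and Ctsa, a carboxypeptidase that also protects neuraminidase and beta-galactosidase, gave mixed probes. Tpp1 read 8.38, 8.14, 8.28, 8.12 and 8.45 on the 5 arrays of day 0, 9.39, 9.58 and 9.45 at day 2 and 8.90, 8.57 and 9.16 at day 4. The remaining arrays gave 9.15, 9.34 and 9.15 at day 5, 9.75, 9.54 and 9.52 at day 6 and 10.02, 10.05 and 9.75 at day 8. All cultured arrays were above day 0, the day 4 arrays were below those of day 2, and the rise to day 8 was 1.67 ± 0.13 (adjusted p = 7.69e-09). The Ctsa probe used fell by 0.54 to day 2 (adjusted p = 0.00742) and then rose by 0.86 to day 8, where it was 0.33 above day 0 (adjusted p = 0.0645). Its 4 other probes moved by 0.23 to 0.59 upwards at day 2. With the probes averaged, Ctsa changed by 0.24 to day 2 (adjusted p = 0.196) and by 0.28 from day 2 to day 8 (0.191), and was 0.52 above day 0 at day 8 (0.00273). Its course therefore depends on the probe. Without repeat 1 of day 2 the fall was 0.39 (adjusted p = 0.0709).

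Of the 2 aspartic cathepsins only Ctsd could be tested, and it was not called. Ctsd, a major acid protease, read 6.61 ± 0.12 at day 0, 6.58 ± 0.42 at day 2 and 6.64 ± 0.29 at day 8, a change of 0.03 ± 0.18 over the culture (adjusted p = 0.921). Its printed sequence holds 1 E-box. Ctse was not above background on any follicle array.

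All 5 tested glycosidases rose by day 8, and 4 of them by day 2, where 20.6% and 12.1% of all genes rose. Neu1 (the lysosomal sialidase) read 8.24, 8.3, 8.08, 8.08 and 8.28 on the 5 arrays of day 0, 8.87, 8.84 and 8.75 at day 2 and 9.08, 9.24 and 9.23 at day 4. From day 5 on its levels were 10.18, 10.04 and 10.02 at day 5, 10.31, 10.33 and 10.54 at day 6 and 10.32, 10.62 and 10.62 at day 8. No array of any cultured day overlapped day 0, and Neu1 stood 2.32 ± 0.11 above day 0 at day 8 (adjusted p = 6.73e-12). It rose in 2 steps that passed the test, by 0.62 to day 2 and by 0.90 from day 4 to day 5.

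Gusb (beta-glucuronidase) read 9.94, 9.87, 9.91, 9.97 and 10.03 on the 5 arrays of day 0, 10.65, 10.80 and 10.77 at day 2 and 10.45, 10.81 and 10.89 at day 4. The later days gave 10.67, 10.98 and 10.82 at day 5, 11.06, 11.14 and 11.33 at day 6 and 11.15, 11.57 and 11.45 at day 8. Its cultured arrays also lay apart from day 0, by 0.80 at day 2 and 1.45 ± 0.13 at day 8 (adjusted p = 2.36e-08). Man2b1, an alpha-mannosidase, rose by 0.93 to day 2 and stood 1.17 above day 0 at day 8. Glb1, the lysosomal beta-galactosidase whose window holds a single box, rose by 0.43 to day 2 and 1.16 to day 8. Hexa, a subunit of beta-hexosaminidase, was 0.33 higher at day 2 (adjusted p = 0.0528) and 0.82 higher at day 8. Gla, the alpha-galactosidase, was detected on 1 array, repeat 1 of day 6.

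The 3 lipid hydrolases rose by day 2, where 12.1% of all genes did. Asah1 (acid ceramidase) read 11.29, 11.33, 11.47, 11.32 and 11.34 on the 5 arrays of day 0, 12.55, 12.09 and 12.01 at day 2 and 12.11, 12.46 and 12.02 at day 4. Levels of the later pools were 12.36, 12.45 and 12.38 at day 5, 13.29, 12.67 and 12.45 at day 6 and 12.82, 12.95 and 13.12 at day 8. Every cultured array exceeded day 0, and the change to day 8 was 1.61 ± 0.17 (adjusted p = 1.94e-07). Repeat 1 of day 6, the array that stood apart, gave its highest value. Ppt1, which removes fatty acids from proteins, rose by 0.67 to day 2 and 1.21 to day 8, and Lipa, the acid lipase for cholesteryl esters, by 0.71 and 0.91.

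The activator precursors are cut into smaller active proteins. Grn (progranulin) read 10.16, 10.04, 10.05, 10.25 and 10.22 on the 5 arrays of day 0, 10.87, 10.65 and 10.54 at day 2 and 10.73, 11.16 and 10.88 at day 4. After that it measured 11.02, 11.42 and 11.55 at day 5, 12.32, 11.66 and 11.91 at day 6 and 11.17, 12.25 and 12.13 at day 8. All cultured arrays were above day 0 and the rise to day 8 was 1.71 ± 0.21 (adjusted p = 1.52e-06), although 1 array of day 8 lay about 1 log2 unit below the others. Psap, the precursor of the saposins that help lipid hydrolases, moved less, from 12.03 ± 0.04 to 12.51 ± 0.05 at day 2 and 12.62 ± 0.10 at day 8.

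**Figure D2:**
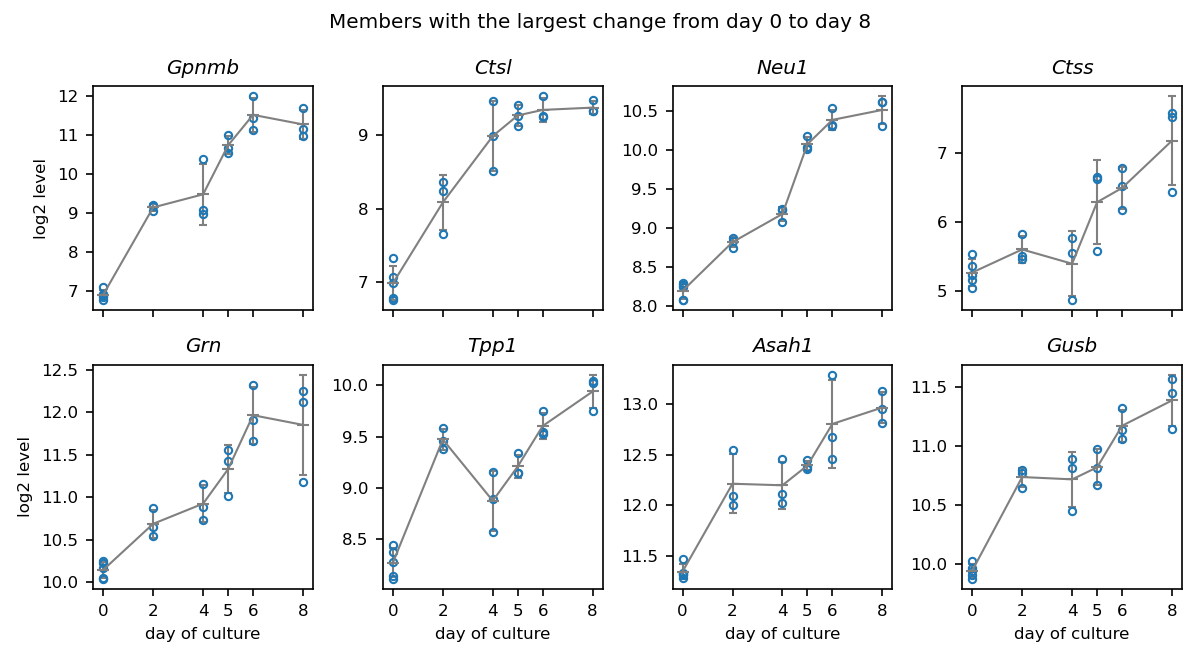
Log2 level against day of culture for the 8 members with the largest called change at day 8. Open circles are arrays, and grey marks are means with SD (n = 5 at day 0, n = 3 later). The mean of Neu1 is higher on each later day, that of Tpp1 dips at day 4, and Ctss and Grn each have 1 low array at day 8.

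Of the other membrane proteins, 4 rose and 1 fell by day 8, where 20.6% of all genes rose and 22.8% fell. Scarb2, the receptor that carries glucocerebrosidase to the lysosome, read 7.39 ± 0.11 at day 0, 7.71 ± 0.08 at day 2 and 8.81 ± 0.01 at day 8. Its change to day 8 was 1.42 ± 0.13 (adjusted p = 5.97e-08). Mcoln1 rose by 0.73, Lamp1 by 0.63 and Lamp2 by 0.59. A second bright probe of Lamp2 rose by 0.59 too, and 2 dimmer ones by 1.46 and 1.63. Cd63, a tetraspanin of late endosomes and exosomes, went from 13.30 ± 0.08 to 12.87 ± 0.08, a fall of 0.44 (adjusted p = 0.0236). Its other probes gave -0.22 and -0.29 and were not called, and without repeat 1 or repeat 2 of day 8 its adjusted p was 0.086 and 0.0519. Under median scaling its change was -0.19 (adjusted p = 0.657).

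Tfeb itself was near background. Its probe with 1 detection read 4.86, 5.42, 4.75, 4.77 and 4.57 at day 0, 5.02, 4.68 and 4.89 at day 2, 4.80, 4.60 and 4.91 at day 4, 5.00, 4.55 and 4.92 at day 5, 4.84, 4.73 and 4.76 at day 6 and 4.70, 4.51 and 4.91 at day 8. Only repeat 2 of day 0 was detected there. The second probe read 4.64, 4.72, 4.61, 4.78 and 4.64 at day 0, 4.77, 5.00 and 4.82 at day 2, 4.62, 4.78 and 4.46 at day 4, 4.49, 4.77 and 4.76 at day 5, 4.71, 5.08 and 4.98 at day 6 and 4.75, 4.88 and 4.93 at day 8, with no detection. The lowest level detected on an array ranged from 5.28 to 5.75, so a change of Tfeb was not detectable at this signal.

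After 2 days, 17 of 29 members had risen and 1 had fallen, where 12.1% of all genes rose and 13.1% fell, and the median change was 0.53. Gpnmb (2.24), Ctsh (1.42), Tpp1 (1.20), Ctsl (1.10) and Ctsk (1.08) rose most. With day 0 counted as 1 sample, 5 rose, when 2.26% of all genes did. Without repeat 1 of day 2, 12 rose: Ctsb, Lamp2, Glb1, Ppt1 and Lgmn lost their calls, at adjusted p from 0.0623 to 0.125. Lipa lost its call without repeat 2 of day 2 (adjusted p = 0.0503), Glb1 without repeat 3 (0.051), and Lamp2 without any 1 of the 3 day 2 arrays or repeats 1 or 2 of day 0. Under median scaling Ctsb, Lamp2 and Psap did not pass (adjusted p = 0.0817, 0.0748 and 0.117), nor did Gusb in the authors' values (0.0608). The Gusb probe used here is absent from the authors' values, so that result rests on dimmer probes. In the values used here the dimmer Gusb probes rose by 0.76 and 0.87 to day 2.

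From day 2 to day 8, 14 members rose and 0 fell, where 10.1% of all genes rose and 12.3% fell. The median was 0.49. The rises beyond 1 log2 unit were those of Gpnmb (2.13), Neu1 (1.70), Ctss (1.57), Ctsf (1.41), Ctsl (1.28), Grn (1.16) and Scarb2 (1.10). Tpp1 (0.47), Hexa (0.49) and Ctsb (0.51) passed narrowly: Hexa lost its call without repeat 2 of day 8 (adjusted p = 0.0592), Tpp1 without repeat 1 or 3 of day 2 or repeat 1 or 2 of day 8 (up to 0.105) and Ctsb without any 1 of 6 arrays (up to 0.156). Under median scaling Ctsb and Tpp1 did not pass (0.0779 and 0.055). This comparison and that of day 2 with day 0 share the day 2 arrays.

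By these calls, 8 members rose by day 2 and again to day 8: Ctsb, Ctsl, Gpnmb, Glb1, Gusb, Neu1, Tpp1 and Asah1. In 9 only the first span passed the test, Ctsc, Ctsh, Ctsk, Lamp2, Man2b1, Psap, Ppt1, Lipa and Lgmn, and in 6 only the second, Ctsa, Ctsf, Ctss, Hexa, Scarb2 and Grn. The place of Ctsa depends on its probe, since with probes averaged neither span passed. That of Lamp2 does too. Its second bright probe passed in neither span (limma adjusted p = 0.086 and 0.156), and a dimmer one in both (6.35e-05 and 0.00875). A dimmer probe of Asah1 passed to day 2 (0.00213) but not from day 2 to day 8 (0.0821). The dimmer probe of Gpnmb passed only in the second span (0.322 and 0.0147). Another 4 passed over the whole culture alone, Ctso, Ctsz, Lamp1 and Mcoln1. Of all genes, 12.1% rose to day 2, 10.1% from day 2 to day 8 and 20.6% over the whole culture. Their split into such groups was not counted, so these group sizes only describe the members. The difference between the later and the earlier change was tested directly, in a contrast added after the data were seen. It was positive for Ctsf (1.71), Ctsa (1.40), Neu1 (1.07) and Scarb2 (0.78) and negative for Ctsh (-1.64) and Ctsk (-0.85), where 6.58% of all genes had a positive and 6.98% a negative difference. The Ctsa value belongs to 1 probe: with its probes averaged the difference was 0.04 (adjusted p = 0.958). Scarb2 and Ctsk lost their calls when some single arrays were left out (adjusted p up to 0.198 and 0.227) and with day 0 as 1 sample (0.252 and 0.203). Under median scaling 3 members passed, and Ctsh, Ctsk and Scarb2 did not (0.0714, 0.115 and 0.13). For the other members the spans were not shown to differ.

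**Figure D3:**
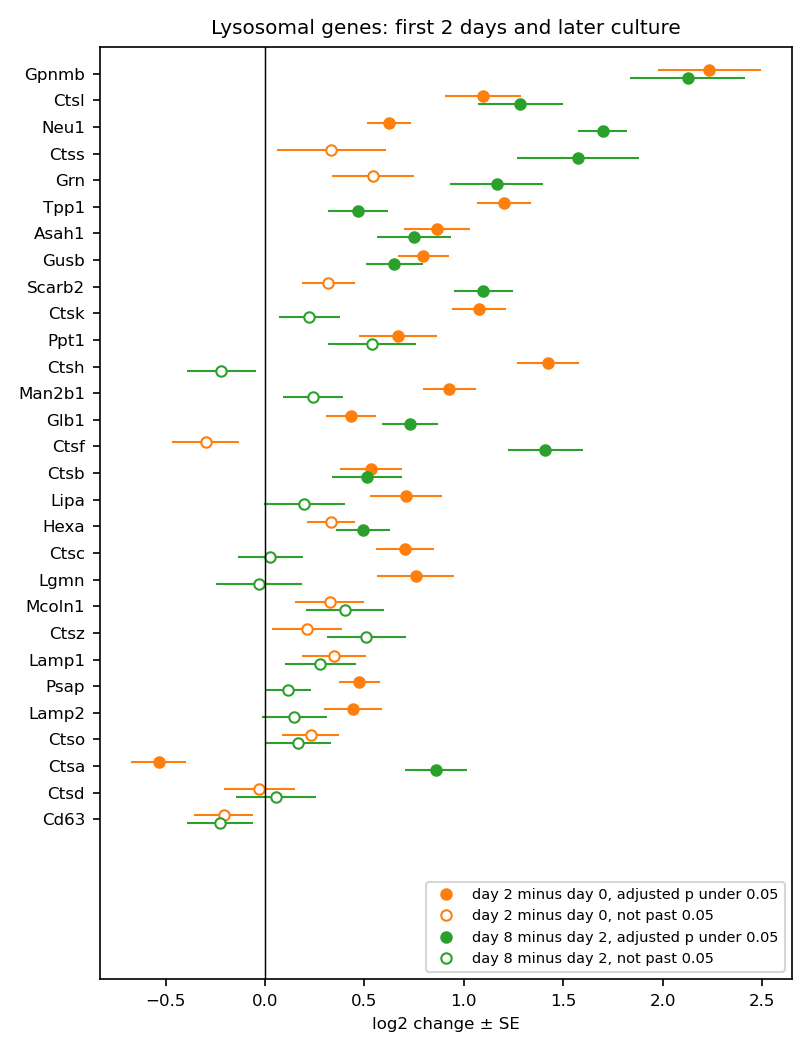
Log2 change with SE for each tested member from day 0 to day 2 (orange) and from day 2 to day 8 (green), ordered by the change from day 0 to day 8. Filled points have an adjusted p under 0.05. Ctsh and Ctsk have their change before day 2, and Ctsf, Scarb2 and Neu1 the larger share after it.

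Between neighbouring days fewer members passed. From day 2 to day 4, Ctsh (-0.77), Tpp1 (-0.60), Ctsb (-0.59), Ctsk (-0.55) and Psap (-0.39) fell and Ctsl (0.90) rose, where 5.34% of all genes fell and 3.05% rose. The day 4 arrays lay below all day 2 arrays for these falls, except for Ctsk, whose arrays overlapped. These genes were picked by their calls, and 26% of all genes had no overlap between these days. Of the 29 changes at this step, 7 were positive, and the median was -0.13, against -0.002 for all genes. The calls at this step were fragile. Without repeat 2 of day 4, 0 members passed; without repeat 2 or 3 of day 2, 2 and 1 did; and under median scaling 1 rose (Ctsl) and 1 fell (Tpp1).

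From day 4 to day 5, Gpnmb (1.25), Neu1 (0.90) and Ctsh (0.88) rose, where 0.543% of all genes rose. Neu1 was the 1 member left when repeat 1 or 2 of day 4, or repeat 1 or 2 of day 5, was left out. Gpnmb lost its call without any 1 of 15 arrays (adjusted p up to 0.213). From day 5 to day 6 limma called 0 members, against 1.34% of genes, although 13 had an unadjusted p under 0.05 and 26 of 29 changes were positive, as against 14.8% and 50.9% of all genes. Without repeat 1 of day 6, the array that stood apart, 8 had such a p and 24 were positive, as against 11.9% and 51.1% of all genes. From day 6 to day 8, Glb1 rose by 0.71, where 0.477% of genes rose, and its call was lost without repeat 1 of day 6, or repeat 1 or 3 of day 8 (adjusted p = 0.0595, 0.12 and 0.0845). Under median scaling neither Glb1 at this step nor Ctsh from day 4 to day 5 passed (0.0929 and 0.168).

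Further lysosomal genes, from lists of known components, are given at day 8 against day 0. Of 25 other hydrolases tested, 19 rose and 1 fell, with a median change of 0.91, and 13 had risen by day 2. Of all genes 20.6% rose and 22.8% fell by day 8, and 12.1% had risen by day 2. Naglu, an enzyme of heparan sulfate breakdown, rose by 2.66, Prcp, a carboxypeptidase, by 1.79 and Hgsnat, also of heparan sulfate breakdown, by 1.62. Pla2g15, a phospholipase, changed by -0.02, and Manba, the beta-mannosidase, fell by 0.55. Of 18 other membrane proteins, 11 rose and 1 fell by day 8. Ostm1, the partner of a lysosomal chloride carrier, rose by 1.81, Tmem106b by 1.53 and Tmem192 by 1.24, while Cln3 changed by -0.24 without a call and Abcb9, a peptide transporter, fell by 0.87. Tmem106b and Prcp did not rise steadily. From day 4 to day 5 Tmem106b fell by 1.84 (limma adjusted p = 1.63e-06) and Prcp rose by 1.33 (0.00074). Prcp then changed by -1.08 to day 6.

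The proton pump acidifies the lumen, and 9 of its 15 tested subunits rose and 0 fell by day 8, with a median of 0.55, against 20.6% and 22.8% of all genes. By day 2, 3 had risen, where 12.1% of all genes did. Atp6v0a1 rose by 1.40, Atp6v0e2 by 1.15 and Atp6v1a by 0.87, and Atp6v1h changed by 0.35 (adjusted p = 0.0517). Of 8 genes that sort enzymes to the lysosome, 6 rose and 1 fell: Sort1, a sorting receptor, rose by 1.67, Gnptab, which makes the mannose 6-phosphate tag, rose by 0.96, Gga3, an adaptor, fell by 0.94, and Gga1 changed by 0.05.

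Of 9 tested relatives of TFEB and nutrient-sensing genes, 1 rose and 1 fell by day 8, where 20.6% of all genes rose and 22.8% fell, with a median of 0.07: Flcn, a regulator of TFEB's entry into the nucleus, rose by 0.32 and Rragd, a nutrient-sensing GTPase, fell by 0.63, while Lamtor4 changed by 0.37 without a call. Mitf, Tfec, Rptor and Lamtor3 were detected on 0 follicle arrays. Of 16 autophagy genes, 3 rose and 2 fell, with a median of 0.15. Neither share is above that of all genes. Wipi1 rose by 0.98, Map1lc3b by 0.83 and Atg5 fell by 0.82, all 3 acting in autophagosome formation, and the cargo receptor Sqstm1 changed by 0.30 without a call. Cst3, the secreted cathepsin inhibitor cystatin C, rose by 0.57, and Cstb changed by 0.02.

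The 6 tested members with a TCACGTG box changed by 0.03 to 1.16 at day 8, with a median of 0.68, and 4 of them rose. The 20 with a window lacking it changed by -0.44 to 4.36, with a median of 1.19, and 19 rose. Of all genes 20.6% rose. Ctsa, which has the box, was not called on the probe used, but rose by 0.52 with its probes averaged (limma adjusted p = 0.00273). These are descriptions without a test.

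**Figure D4:**
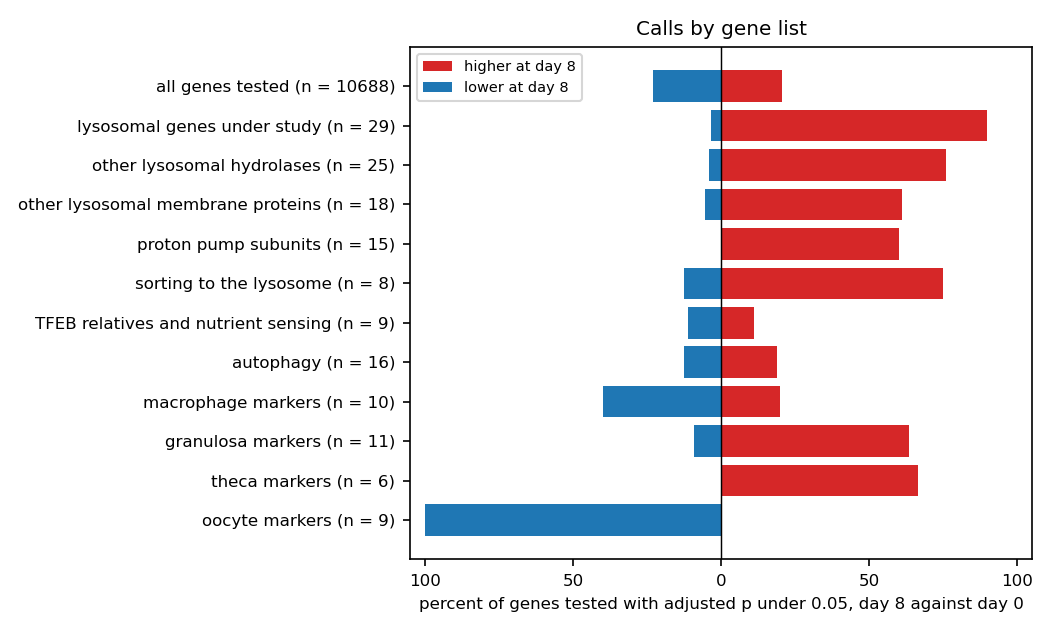
Percent of the tested genes in each list with an adjusted p under 0.05 at day 8 against day 0, higher to the right in red and lower to the left in blue, with the number tested in brackets. The lysosomal genes, the other hydrolases, the membrane proteins, the pump and the sorting genes reach further right than left, whereas the bars of autophagy genes and TFEB relatives are short.

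Several members are also made by macrophages and osteoclasts, and markers of these cells were read on the same arrays. Of 15 macrophage markers 10 could be tested, and by day 8 Lyz2 (3.86) and Cd68 (1.06) rose while 4 fell, Cd14 (-1.46), Mrc1 (-0.83), C1qb and Adgre1, where 20.6% of all genes rose and 22.8% fell. No array of day 8 detected C1qb or Adgre1. C1qb was at least 1.26-fold lower than at day 0, and for Adgre1, detected on 3 of 5 arrays of day 0, the bound was at least 1.04-fold lower. Tyrobp changed by 0.20 without a call, and Csf1r, Ptprc, Fcer1g and Itgam were detected on 0 arrays. The summed normalised intensity of the 10 was 359 to 432 at day 0, 247 to 364 at day 2 and 597 to 1657 at day 8. Lyz2 carried this rise, from 29.8 to 56.0 at day 0 up to 394 to 1380 at day 8, and the other 9 summed to 325 to 382 at day 0, 160 to 213 at day 2 and 203 to 276 at day 8. Their part in the members' changes was not tested. Of 6 osteoclast markers 2 could be tested: Mmp9 rose by 2.03 and Acp5 changed by 0.00, while Calcr, Ocstamp, Dcstamp and Tnfrsf11a were detected on 0 arrays. All 5 melanocyte markers were detected on 0 arrays.

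Markers of the follicle's own cells and of its surroundings moved as well, where 20.6% of all genes rose and 22.8% fell by day 8. Of 11 tested granulosa markers 7 rose and 1 fell, led by Inhba (5.39) and Cyp19a1 (3.10), with Amh at least 21.0-fold lower. Theca markers gave 4 rises and 0 falls among 6, and oocyte markers 9 falls of 9, their summed intensity going from 44767 to 51586 at day 0 down to 10006 to 10717 at day 8. Red blood cell, smooth muscle and surface epithelium markers fell in 3 of 3, 4 of 4 and 4 of 4 tested, among them Hba-a1 (at least 64.1-fold lower, and with a near-identical copy), Myh11 (-2.16) and Krt18 (-3.14). Of 6 endothelial markers 1 rose and 3 fell, Emcn by -1.48. The summed intensity of red blood cell markers was 2358 to 3251 at day 0 and 74.8 to 93.1 at day 2, and that of surface epithelium markers 2059 to 2390 and 788 to 842. Their part in the members' changes was not tested. The summed intensity of the 29 members was 40064 to 41411 at day 0 and 56163 to 60165 at day 2. It was 42944 to 49204 at day 4, below day 2, and 54759 to 60083 at day 5. At days 6 and 8 it was 64096 to 76447 and 70836 to 75499. How far the mix of cells and the level per cell each contribute cannot be told apart here.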

How the data were processed

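Total RNA of pooled follicles was amplified, labelled with biotin and read on Illumina mouse bead arrays. Per the file headers, the deposited signal table gave, for 25697 probes, a bead intensity, its standard error as an intensity, a detection p-value and the number of beads (38 to 40 at the median). The deposited intensities had not been normalised. A table of log2 values by the authors (23286 probes, array medians 7.87 to 7.89) served as an alternative, and each of its 20 follicle columns matched the signals of its own sample over 3967 bright probes. The software behind both tables is not given in the sources used here. For arrays, the number of arrays limits the precision.

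Signals of the 20 follicle arrays were processed with neqc (background from the detection p, offset 16, quantile, log2) in limma 3.58.1 (R 4.3.3). Kept were 14490 probes detected (p under 0.05) on 3 or more arrays, and the brightest probe on average stood for its symbol (10688 genes). Symbols were updated with RefSeq (GRCm38.p6): 14307 of 18138 were current, 2906 had a unique synonym and 925 were kept. Each day had its own mean in a linear model over the 20 arrays, with eBayes and Benjamini-Hochberg adjustment over all genes. The fit was tested on simulated data. Other scalings, filters, probe rules, array weights, a repeat block, day 0 as 1 sample and leaving out each array were tried. Where no array of a day detected a gene, a fold is a lower bound, set by the lowest level detected on that array. Each array is a sample of its day; 5 arrays labelled brain reference entered no comparison. The members and lists were chosen with earlier results of these data known. Arrays are printed singly for the 8 members with the largest called change at day 8 whose arrays do not overlap day 0, for the 3 with the largest from day 2 to day 8, and for Tfeb. Lack of overlap at day 8 in those 8 was set by this choice, and 46.7% of all genes had no overlap either. From each list up to 3 called genes with the largest change and the brightest uncalled gene were named, for the marker lists in shortened form; Manba, Abcb9, Cd68, Mrc1 and Adgre1 were named after their values were seen.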

Additional observations from a re-analysis of the deposited data

Results flagged for a closer look

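Within day 0, repeat 3 gave Asah1 a level of 11.5, while the other 4 arrays lay between 11.29 and 11.34. Its gap to the nearest of them was 0.733 of the range of the 5 arrays, above Dixon's limit. This was 1 such array among the 29 members examined, and chance gives about 1 in 20. Every array of the cultured days still lay above it.

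Ctse, the aspartic cathepsin that was not above background on any of the 20 follicle arrays, was detected on 5 of 5 arrays labelled brain reference, which entered no comparison.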

How the results depend on the processing

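Of 69 member changes that passed the test, 35 kept their call and direction under every alternative and 34 lost the call under at least 1. Ctsa at day 2 also reversed, to 0.24, with its probes averaged. The numbers of members called in the F test and risen at day 8 against day 0 or day 2 stayed within 1.5 times under every alternative run. With day 0 as 1 sample, which leaves fewer arrays, the members risen and fallen at day 2 numbered 5 and 0, those fallen at day 8 numbered 0, and the steps to days 4, 5 and 8 had 3, 1 and 0 calls. Under median scaling 0 members fell at day 8, 2 were called from day 2 to day 4, 0 from day 6 to day 8, and 3 for the later minus the earlier change (13 with array weights). With probes averaged 0 fell at day 2 and 0 at day 8. Array weights gave 10 calls from day 2 to day 4, and 1 was called from day 5 to day 6 both in the authors' log2 values and without background correction. The causes were not tested. The authors' values moved 30 of 64 called changes by over 1.5 times, and leaving out background correction moved 8 of 69. The probe used for Gusb is absent from the authors' values, so its changes there rest on dimmer probes.

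Leaving out single arrays gave 26 to 28 members in the F test, 12 to 19 risen and 0 to 1 fallen at day 2, and 25 to 27 risen and 0 to 1 fallen at day 8. From day 2 to day 8 it gave 12 to 15 risen and 0 to 0 fallen. The steps ranged from 0 to 7 (day 4), 1 to 3 (day 5), 0 to 1 (day 6) and 0 to 1 (day 8).

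No pairing by repeat number was seen. Same-numbered pairs of deviations correlated from -0.42 to 0.56, with 15 of 45 over 0.1. Pairs with another number correlated from -0.58 to 0.51, with 35 of 90 over 0.1. Of 18 arrays, 3 correlated best with their own number. With so few arrays a day, this cannot show that the repeats were unpaired. With the repeat number as a block, 0 members fell at day 8, 1 was called from day 4 to day 5 and 0 from day 6 to day 8. Levels near the detection limit restrict Ctsc, Ctso, Ctss, Gla and Tfeb.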
